A study of Mus musculus with 3 samples.

Results

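The CHD genes Chd1 to Chd9 encode the chromodomain helicase DNA-binding proteins. They were taken by symbol from the 3 count tables, where all 9 were found among 19744 gene rows. The tables hold Drop-seq counts from medulloblastomas of hGFAP-Cre/SmoM2 mice (called G-Smo) on a C57BL/6 background. In these mice, Cre from the human GFAP promoter, which is active in neural stem and progenitor cells, turns on a constitutively active Smoothened, so glia and neurons of the same lineage can carry the transgene too. All 3 tumours, replicates 1 to 3 of the single POx-palbo group, came from mice given palbociclib, a cyclin-dependent kinase inhibitor, as POx-palbo at 25 mg/kg in 5 daily intraperitoneal doses from postnatal day 10, with harvest on day 16. Untreated tumours were not analysed here, so an effect of the drug cannot be told apart in anything below. The comparisons are between sets of barcodes of the same tumours, a barcode standing for the RNA caught with 1 bead.

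CHD proteins are ATP-driven enzymes that slide, evict or space nucleosomes, and each carries paired chromodomains before an Snf2-type motor. Chd3, Chd4 and Chd5 are alternative motor subunits of the NuRD complex, which joins nucleosome remodelling to histone deacetylation and is known in the mouse for switching off promoters as cerebellar granule neurons form synapses. Chd1 and Chd2 act at transcribed genes, whereas Chd6 to Chd9 form a further subfamily that includes Chd7, a gene of granule neuron progenitors whose human counterpart is mutated in CHARGE syndrome.

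The motor is so conserved that the family can be read from a short coding stretch. The 24 bases around the ATP-binding loop are shown for the 3 alternative NuRD motors, because the results turn on counts of Chd3 against those of its nearest relatives. They were read from the longest open reading frame of the GENCODE M21 transcripts (GRCm38), 5′ to 3′, and the capitals mark the last 3 codons, glycine, lysine and threonine, which contact the nucleotide's phosphates. Chd3 lies on chromosome 11, Chd4 on chromosome 6 and Chd5 on chromosome 4.

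Chd3: gatgagatggggctgGGCAAGACC

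Chd4: gatgagatgggccttGGGAAAACT

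Chd5: gacgagatgggtttgGGGAAGACA

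Chd3 shared 19 of these 24 bases with Chd4 and 19 with Chd5, and Chd4 shared 18 with Chd5. Over all 36 pairs of CHD genes the identity ran between 17 and 22 bases, and in all 9 genes the stretch encodes 1 and the same run of 8 residues. The counted ends of the transcripts were far less alike. Over the last 1000 bases of each transcript, the longest exact run that any of the 36 pairs shared was 15 bases, so the genes are distinct where Drop-seq reads them. No exon of Chd3, Chd1, Chd6 or Chd7 overlaps an exon of another annotated gene, and genes within introns were not looked for. Chd2, Chd4, Chd5, Chd8 and Chd9 each overlap a noncoding gene, and since no strand setting is given in the sources used here, their counts can hold reads of those genes.

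Tumours 1, 2 and 3 gave 8827, 2330 and 9802 barcodes with 1150463, 248617 and 1324350 counts. Barcodes of at least 200 counts, used for all comparisons, numbered 1060, 148 and 1059, with median counts of 353.5, 255.5 and 301. Tumour 2 stands apart: it is the shallowest, and mitochondrial genes took 11.1% of the counts in its barcodes of at least 200 counts, against 5.64% in tumour 1 and 6.30% in tumour 3. The tested differences of Chd3, Chd4, Chd6 and Chd7 in the 3 main comparisons are given with and without it. Levels are given in CPM, which is counts per 1000000 counts of the tumour or barcode set. Granule neuron progenitor markers, such as Atoh1 and Gli1, summed to 5710, 4836 and 6566 CPM in these barcodes, with 10, 9 and 10 of 10 markers counted. No barcode of at least 200 counts was shared between libraries.

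CHD transcripts made up 0.295%, 0.325% and 0.278% of all counts in tumours 1, 2 and 3, and Chd4 and Chd7 led in every tumour. Levels over all barcodes are in CPM of the tumour's total, 1 count being 1 transcript end, so no length correction applies. Chd4, the NuRD motor of many dividing cells, stood at 1151, 1215 and 993 CPM in tumours 1, 2 and 3, with a mean of 1119.5 ± 114 (SD, n = 3). It supplied 37.3% of all CHD counts. Chd7 stood at 737, 792 and 698 CPM, with a mean of 743 ± 47.2 (SD, n = 3), and supplied 25.0% of CHD counts. Neither gene's range overlapped that of any other CHD gene.

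Chd6, a subfamily relative of Chd7, came next at 314, 378 and 310 CPM, again without overlap with the genes above or below it. Chd3 was the most variable of the well-counted genes, at 169, 290 and 162 CPM in tumours 1, 2 and 3, with tumour 2 alone far above the others. Its mean of 207 ± 71.7 CPM (SD, n = 3) lay beside that of Chd1 at 196 ± 14.1 CPM, and the ranges of these 2 genes overlapped. Chd2 (145 ± 10.5 CPM), Chd9 (134 ± 18.5 CPM) and Chd8 (115 ± 21.3 CPM) followed, and neither Chd2 and Chd9 nor Chd9 and Chd8 differed beyond their spread over tumours. Chd8, whose human counterpart is an autism gene, was thus counted about as often as Chd9.

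Chd5, the NuRD motor described in mature neurons, was close to absent at this depth. It had 4, 0 and 6 counts in tumours 1, 2 and 3, that is 3.48, 0 and 4.53 CPM. The other CHD genes ranked between percentiles 90.9 and 99.7 of all gene rows by total count, while Chd5 lay at percentile 37.1.

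**Figure D1:**
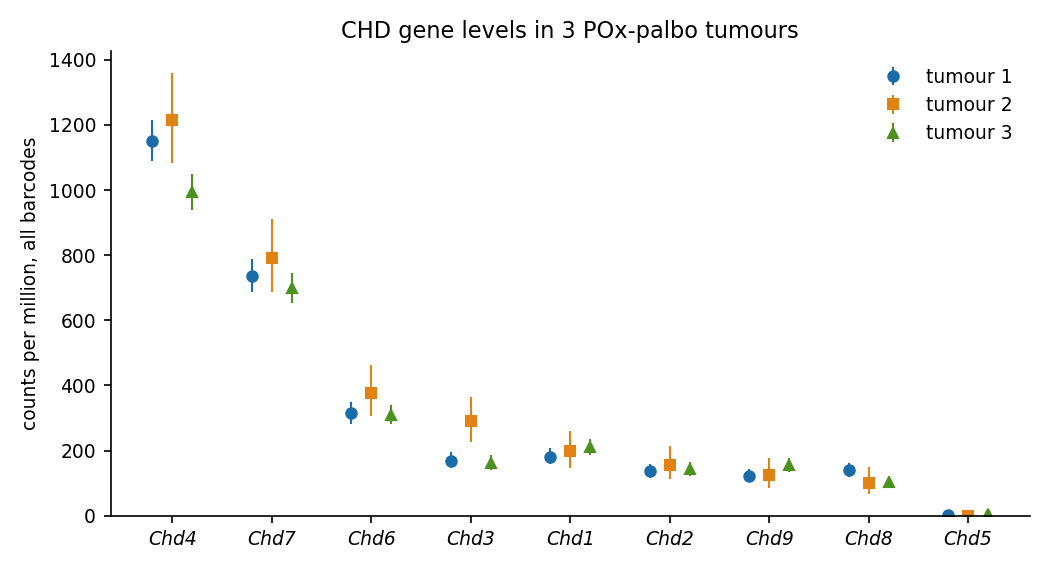
Level of each CHD gene in CPM of all barcodes (vertical axis), in order of the mean; each point is 1 tumour and each bar its exact Poisson 95% interval, which covers counting error only. Chd4 lies between 993 and 1215 CPM and Chd7 between 698 and 792 CPM, above the other 7 genes in every tumour, and Chd3 in tumour 2 lies at 290 CPM, above tumours 1 and 3.

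The first comparison set barcodes with a count of Neurod1, a transcription factor of differentiating granule neurons, against barcodes without one. Neurod1 was counted in 330, 51 and 407 barcodes and not in 730, 97 and 652 barcodes of tumours 1, 2 and 3. Median counts were 372.5, 253 and 316 with Neurod1, against 345, 256 and 294 without. Chd3 was the only CHD gene that passed the test, and it was higher with Neurod1 in all 3 tumours. In Neurod1-detected barcodes Chd3 had 64, 9 and 54 counts, or 421, 467 and 334 CPM, against 47, 11 and 38 counts, or 150, 407 and 161 CPM, in Neurod1-free barcodes. Tumours 1 and 3 were clearly separated and tumour 2 hardly so, its Neurod1-free level being as high as the Neurod1-detected level of the other tumours. The log2 difference was 1.13 (SE 0.25, 95% interval 0.63 to 1.63), with an adjusted p of 0.002104 in edgeR's quasi-likelihood test with Benjamini-Hochberg adjustment over 5835 genes.

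Of the 9 CHD genes, 8 had enough counts to be tested and 1 was called. Over all genes tested, 1.15% were called, with 0.857% higher and 0.291% lower in Neurod1-detected barcodes. Without tumour 2, Chd3's difference was 1.30 (SE 0.23, adjusted p = 0.003256 in edgeR). Without tumour 1 it was 0.73 (adjusted p = 0.998 in edgeR), and without tumour 3 it was 1.05 (adjusted p = 1.00 in edgeR), so the call needed both deep tumours. The call was also lost without the tumour block (1.02, adjusted p = 0.998 in edgeR), with DESeq2 (0.99, adjusted p = 1.00) and with limma-voom (1.12, adjusted p = 0.793). It was lost too with barcodes thinned to 200 counts (0.93, adjusted p = 0.396 in edgeR) and with barcodes of at least 500 counts (1.59, adjusted p = 0.103 in edgeR). The sets were formed again after thinning, so barcodes that lost their Neurod1 counts joined the Neurod1-free set. The log2 difference was above 0 in 18 of 18 alternatives, between 0.73 and 1.59.

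Chd4, the alternative motor in the same complex, did not pass. It stood at 1611, 829 and 1397 CPM in Neurod1-detected barcodes of tumours 1, 2 and 3, against 1738, 1887 and 1395 CPM in Neurod1-free barcodes. The values of tumours 1 and 3 were nearly equal between the sets, and the low value of tumour 2 rested on 16 counts. The log2 difference was -0.23 (SE 0.16, adjusted p = 0.769 in edgeR), with a 95% interval of -0.55 to 0.09. Without tumour 2 it was -0.04 (SE 0.10, adjusted p = 0.893 in edgeR).

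Chd7 stood at 1269, 570 and 983 CPM in Neurod1-detected barcodes, against 894, 555 and 833 CPM in Neurod1-free barcodes. It was above its counterpart in each tumour, with a log2 difference of 0.34 (SE 0.18, 95% interval -0.01 to 0.69) that did not pass the test (adjusted p = 0.59 in edgeR). Without tumour 2 it was 0.39 (SE 0.12, adjusted p = 0.11 in edgeR). Chd6 stood at 441, 570 and 426 CPM, against 468, 222 and 347 CPM, with the order of the sets differing between tumours (log2 difference 0.18, SE 0.21, adjusted p = 0.91 in edgeR), and without tumour 2 the difference was 0.11 (SE 0.18). The log2 differences of Chd1, Chd2, Chd8 and Chd9 were -0.29, 0.07, 0.26 and 0.33, with standard errors between 0.26 and 0.32, and none passed. Chd1, which binds methylated histone tails at active promoters, was below its Neurod1-free level in 3 of 3 tumours, and Chd9 above it in 3 of 3. In tumour 2 this rested on 4 against 6 counts of Chd1 and on 3 against 0 counts of Chd9. Chd9 was near level in tumour 3, at 185 against 182 CPM. The share of all genes with the same order in each tumour was not computed, so these orders are a description.

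Chd5 was not tested. It had 0, 0 and 0 counts in Neurod1-detected barcodes, which allows up to 19.7, 155.5 and 18.5 CPM (3 counts of each set), against 2, 0 and 3 counts in Neurod1-free barcodes. No difference was detectable for it at this depth.

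**Figure D2:**
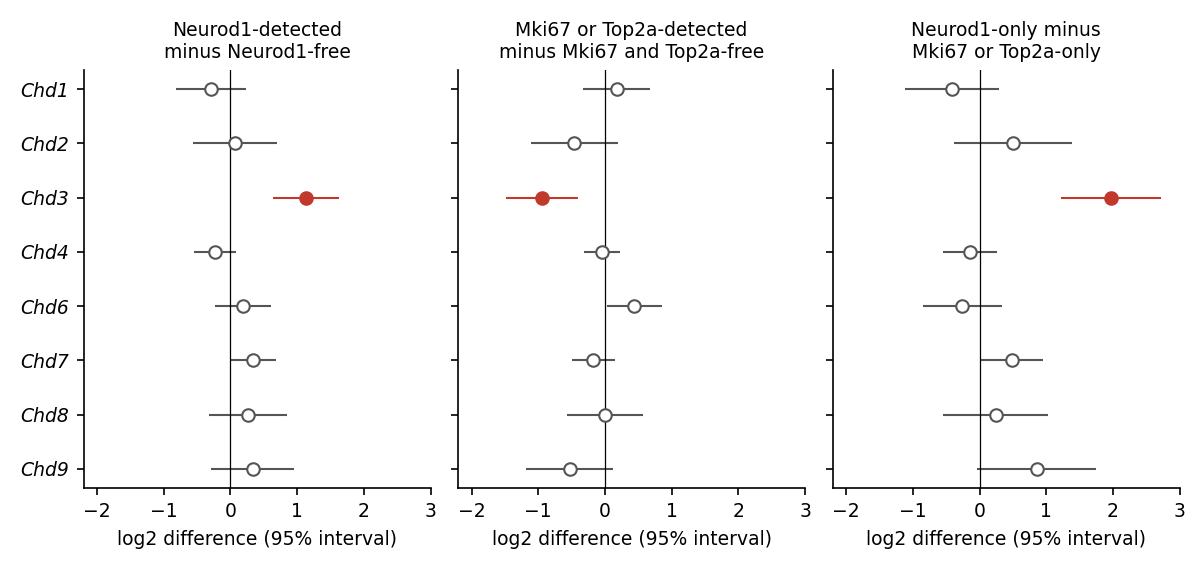
Log2 difference of the 8 tested CHD genes (horizontal axis) in 3 comparisons, with 95% intervals from edgeR's quasi-likelihood fit; filled red points passed an adjusted p of 0.05 over 5835 genes. Chd3 alone is filled in each panel, at 1.13, -0.94 and 1.97.

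The second comparison set barcodes with a count of Mki67 or Top2a, genes of cycling cells, against barcodes with neither. There were 343, 58 and 377 such barcodes and 717, 90 and 682 without. Chd3 was again the only CHD gene called, this time lower in the cycling set, but tumour 2 went the other way. The 2 splits were not independent. Neurod1 itself was lower in the cycling set, by a log2 difference of -1.11 (SE 0.14, adjusted p = 9.7e-12 in edgeR). The Chd3 call here is thus not a result separate from the first. In Mki67 or Top2a-detected barcodes Chd3 had 21, 11 and 26 counts, or 116, 484 and 152 CPM, against 90, 9 and 66 counts, or 315, 381 and 291 CPM, in barcodes free of both. The 2 deep tumours were low and tumour 2, on few counts, was not. The log2 difference was -0.94 (SE 0.28, 95% interval -1.49 to -0.40, adjusted p = 0.03038 in edgeR), lower in 2 of 3 tumours.

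This call was the least stable of the 3. Over all genes tested 2.96% were called, 2.13% higher and 0.84% lower in Mki67 or Top2a-detected barcodes, and 1 of 8 CHD genes. Without tumour 2 the difference was -1.17 (SE 0.25, adjusted p = 0.008308 in edgeR), without tumour 1 it was -0.52 and without tumour 3 it was -0.83, the last 2 with adjusted p of 1.00 and 0.999. Chd3 stayed called in 6 of 18 alternatives, with adjusted p between 0.008308 and 1.00, and was lower in all 18. Cycling barcodes were also deeper, with median counts of 447, 274.5 and 359 against 318, 246.5 and 284. With all barcodes thinned to 200 counts the difference was -0.63 (adjusted p = 0.871 in edgeR). Thinning also changed the sets, since barcodes that lost their Mki67 and Top2a counts joined the free set. It left 8, 5 and 9 Chd3 counts in the cycling sets of tumours 1, 2 and 3, so it does not isolate depth.

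Chd6 had the largest difference in the other direction, at 504, 528 and 455 CPM in Mki67 or Top2a-detected barcodes, against 430, 212 and 321 CPM in barcodes free of both. Chd6 was higher in the cycling set in 3 of 3 tumours, on 12 against 5 counts in tumour 2. The share of all genes with the same order in each tumour was not computed. The log2 difference of 0.44 (SE 0.21, 95% interval 0.02 to 0.85) did not pass the adjusted test (adjusted p = 0.443 in edgeR), nor did that of 0.37 without tumour 2 (adjusted p = 0.34 in edgeR). Chd4 was close to level, at 1629, 1320 and 1407 CPM against 1739, 1568 and 1387 CPM, with a log2 difference of -0.05 (SE 0.14, 95% interval -0.32 to 0.22, adjusted p = 0.969 in edgeR), or -0.03 (SE 0.09) without tumour 2.

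Chd7, at 920, 660 and 800 CPM against 1078, 466 and 964 CPM, had a log2 difference of -0.17 (SE 0.16, adjusted p = 0.871 in edgeR), with tumour 2 again opposite to the deep tumours. Without tumour 2 it was -0.23 (SE 0.12, adjusted p = 0.393 in edgeR). The log2 differences of Chd1, Chd2, Chd8 and Chd9 were 0.17, -0.46, -0.002 and -0.53, and none passed. Chd9 was lower in 3 of 3 tumours, on 0 against 3 counts in tumour 2. Chd5 had 2, 0 and 2 counts in Mki67 or Top2a-detected barcodes against 0, 0 and 1 counts in the rest.

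The third comparison took barcodes with Neurod1 but neither cycle gene against barcodes with a cycle gene but no Neurod1, the 2 ends of the split. Neurod1-only barcodes numbered 249, 34 and 286, and Mki67 or Top2a-only barcodes 262, 41 and 256. The Neurod1-only barcodes were shallower in each tumour, with median counts of 346, 243 and 301.5 against 431.5, 270 and 335. The part of depth in this comparison was not tested. Chd3 had its largest difference here. Neurod1-only barcodes had 51, 4 and 41 Chd3 counts, or 487, 449 and 410 CPM, against 8, 6 and 13 counts, or 60.1, 486 and 119 CPM, in Mki67 or Top2a-only barcodes. In tumours 1 and 3 the sets were far apart, while tumour 2, with 10 counts in all, had them side by side.

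The log2 difference was 1.97 (SE 0.38, 95% interval 1.22 to 2.71), with an adjusted p of 2.822e-05 in edgeR, higher in 2 of 3 tumours. Over all genes tested 4.97% were called, 2.23% higher and 2.74% lower in Neurod1-only barcodes, and 1 of 8 CHD genes was. The call held with DESeq2 (log2 difference 1.87, adjusted p = 0.002214) and limma-voom (1.90, adjusted p = 0.002273). It was lost without the tumour block (adjusted p = 0.05201), with barcodes thinned to 200 counts (1.21, adjusted p = 0.227), without tumour 1 (1.14, adjusted p = 1.00) and without tumour 3 (1.83, adjusted p = 0.454), all in edgeR. Without tumour 2 it was 2.35 (SE 0.35, adjusted p = 2.234e-06 in edgeR).

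Barcodes of the middle sets lay between the ends in the deep tumours. Those with both kinds of marker held 275, 482 and 210 CPM of Chd3, and those with neither held 216, 341 and 197 CPM. In 2 contrasts chosen after the data were seen, Chd3's log2 difference was 1.03 (SE 0.32, adjusted p = 0.147 in edgeR) for Neurod1-only barcodes against those with neither, where 0.514% of all genes were called. Without tumour 2 this was 1.13 (SE 0.29) and passed, with an adjusted p of 0.02844 in edgeR. The difference was -0.94 (SE 0.40, adjusted p = 0.49 in edgeR) for Mki67 or Top2a-only barcodes against those with neither, where 1.11% were, and -1.22 without tumour 2 (SE 0.38, adjusted p = 0.105 in edgeR). A Neurod1 difference that depends on the cycle genes, a test likewise added later, was not called (interaction 0.11, SE 0.54, 95% interval -0.94 to 1.16, adjusted p = 1.00 in edgeR), where 0.0343% of all genes were called, and 0.29 (SE 0.52, adjusted p = 0.987 in edgeR) without tumour 2.

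Chd7 stood at 1259, 112 and 1070 CPM in Neurod1-only barcodes, against 788, 405 and 776 CPM in Mki67 or Top2a-only barcodes, with tumour 2 reversed on 1 and 5 counts. The log2 difference was 0.48 (SE 0.24, adjusted p = 0.312 in edgeR), and without tumour 2 it was 0.57 with an adjusted p of 0.04483, the one alternative in which a second CHD gene passed. Chd9 differed by 0.86 (SE 0.46, adjusted p = 0.378 in edgeR), higher in 3 of 3 tumours, on 3 against 0 counts in tumour 2. Chd4 differed by -0.15 (SE 0.21, 95% interval -0.55 to 0.26, adjusted p = 0.858 in edgeR), and by -0.02 (SE 0.16) without tumour 2. Chd6 differed by -0.26 with and by -0.27 without tumour 2, Chd1 by -0.41, Chd2 by 0.50 and Chd8 by 0.24, and none passed.

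**Figure D3:**
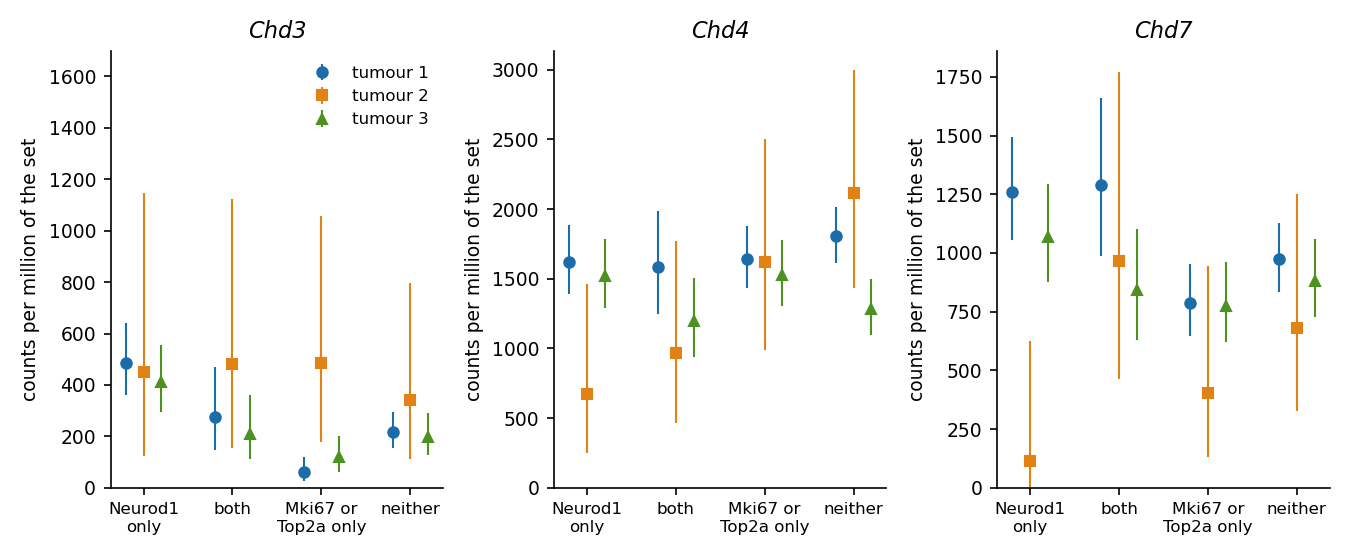
Chd3, Chd4 and Chd7 in CPM (vertical axes, each panel its own scale) in the 4 barcode sets of each tumour, with exact Poisson 95% intervals. In tumours 1 and 3 Chd3 lies at 487 and 410 CPM in Neurod1-only barcodes and at 60.1 and 119 CPM in Mki67 or Top2a-only barcodes; in tumour 2 the intervals span most of the axis.

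Set against its alternatives, Chd3 made up more of the NuRD motor transcripts in Neurod1-detected barcodes. Its share of the Chd3, Chd4 and Chd5 counts was 20.7%, 36.0% and 19.3% in tumours 1, 2 and 3, against 7.90%, 17.7% and 10.2% in Neurod1-free barcodes. The exact binomial (Clopper-Pearson) 95% intervals were 16.3% to 25.7% against 5.86% to 10.4% in tumour 1, and 14.8% to 24.4% against 7.35% to 13.8% in tumour 3, and did not overlap there. In tumour 2 they overlapped, at 18.0% to 57.5% against 9.20% to 29.5%.

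All 3 tumours moved the same way, by a mean of 13.4 ± 4.63 percentage points (SD, n = 3). The exact sign-flip permutation test, two-sided, gave p = 0.25, the smallest that 3 tumours allow. Between the ends of the split the shares were 23.1%, 40.0% and 21.2% in Neurod1-only barcodes, against 3.49%, 23.1% and 7.14% in Mki67 or Top2a-only barcodes, a mean difference of 16.9 ± 2.74 points (SD, n = 3, exact p = 0.25). Here tumour 2 had the same direction as the others, with 6 Chd4 counts in Neurod1-only barcodes, against 20 in Mki67 or Top2a-only barcodes. Most of the motor transcripts in every set were thus Chd4.

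**Figure D4:**
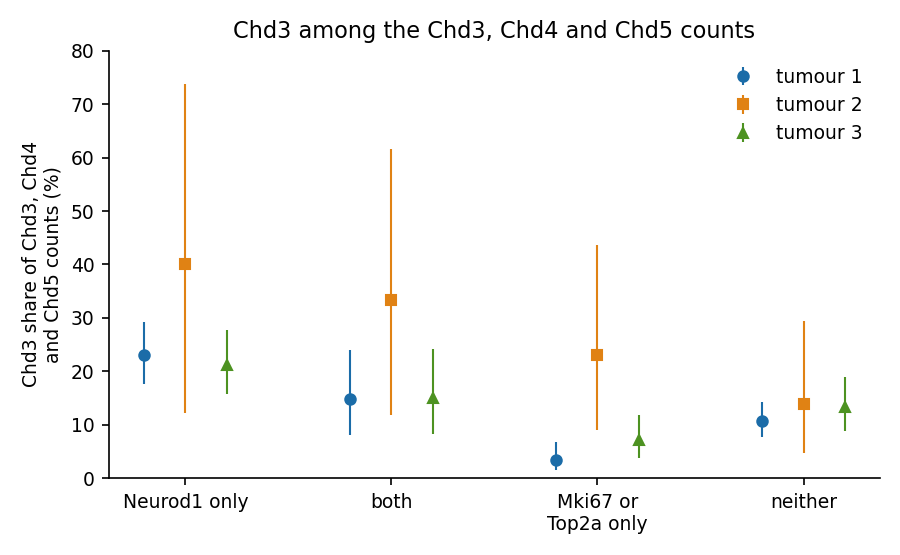
Share of Chd3 among the counts of Chd3, Chd4 and Chd5 (vertical axis, percent) in the 4 barcode sets, 1 point per tumour with exact binomial 95% intervals. The shares of Neurod1-only barcodes (23.1%, 40.0% and 21.2%) are above those of Mki67 or Top2a-only barcodes (3.49%, 23.1% and 7.14%) in each tumour.

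What else differed between the sets was measured beside Chd3. The other 7 granule neuron markers, Neurod1 left out, were all counted except Grin2b in the Neurod1-detected barcodes of tumour 2, and summed to 3682, 2177 and 3133 CPM in Neurod1-detected barcodes, against 1700, 2294 and 1716 CPM in Neurod1-free barcodes. They were thus higher in the 2 deep tumours and level in tumour 2, like Chd3. The granule neuron progenitor markers were near level, at 5589, 4717 and 6285 CPM in Neurod1-detected barcodes, against 5768, 4922 and 6758 CPM in Neurod1-free barcodes. The share of mitochondrial counts was 4.94%, 7.75% and 5.37%, against 5.98%, 13.5% and 6.93%, lower with Neurod1 in all 3 tumours. With mitochondrial genes left out of the sums, Chd3's difference was 1.14 (adjusted p = 0.002274 in edgeR). With a cell filter that removed 97, 51 and 133 barcodes for over 10% mitochondrial counts, along with doublets and barcodes of few genes, it was 1.20 (SE 0.28, adjusted p = 0.005117 in edgeR).

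The markers also moved with the cycle genes. The same 7 granule neuron markers summed to 1530, 1980 and 1448 CPM in Mki67 or Top2a-detected barcodes, against 2862, 2501 and 2928 CPM in barcodes free of both, lower in all 3 tumours. Between the ends of the split they summed to 4255, 2916 and 3830 CPM in Neurod1-only barcodes, against 1216, 2349 and 1132 CPM in Mki67 or Top2a-only barcodes. The progenitor markers had no common order there, at 5266, 4934 and 6290 CPM against 5609, 4455 and 6456 CPM. The ends thus differed in granule neuron markers but little in progenitor markers. Mitochondrial counts made up 5.88%, 9.94% and 5.99% in Mki67 or Top2a-detected barcodes, against 5.48%, 12.2% and 6.53% in barcodes free of both, with no common order. With the cell filter, Chd3's difference by the cycle genes was -0.92 (SE 0.30, adjusted p = 0.0596 in edgeR), past the threshold no longer, and between the ends of the split it was 1.97 (adjusted p = 0.000149 in edgeR). The part of the granule neuron markers in these results was not tested.

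Other cell types were few. By marker counts 44 of the 2267 barcodes of at least 200 counts were called myeloid, 20 astrocyte, 11 oligodendrocyte, 8 endothelial or mural and 4 erythroid, while 2182 had no such call, a few having more than 1. Chd3 was high in the oligodendrocyte-called barcodes, with 9 counts or 1467 CPM (95% Poisson interval 671 to 2786), all of them in tumour 1, against 236 CPM in barcodes without a call. Endothelial or mural-called barcodes held 6 Chd3 counts or 425 CPM (156 to 925), 3 of them in tumour 2. With called barcodes left out, Chd3 in Neurod1-detected barcodes of tumour 2 fell from 9 to 6 counts. Its share of the NuRD motor counts there was then 28.6%, against 18.6% in Neurod1-free barcodes. The 7 oligodendrocyte markers summed to 598, 2436 and 253 CPM in Neurod1-detected barcodes, with 7, 4 and 5 of them counted, against 462, 185 and 431 CPM in Neurod1-free barcodes, with 7, 2 and 7 counted. By the cycle genes they summed to 260, 176 and 304 CPM in Mki67 or Top2a-detected barcodes, with 5, 2 and 5 counted, against 661, 2035 and 401 CPM in barcodes free of both, with 7, 4 and 7 counted. These markers were thus lower with the cycle genes in all 3 tumours, as Chd3 was in the deep tumours. The high values of tumour 2 came mostly from 1 oligodendrocyte-called barcode. It held 39 of the 47 marker counts in Neurod1-detected barcodes, and 39 of the 48 in barcodes free of both cycle genes. Chd7 was low in myeloid-called barcodes, with 6 counts or 206 CPM (75.5 to 448), against 975 CPM in barcodes without a call. The 8 myeloid markers summed to 1802, 6946 and 1483 CPM in Neurod1-detected barcodes, against 2263, 1998 and 4911 CPM in Neurod1-free barcodes. With every called barcode left out, Chd3's difference by Neurod1 was 1.36 (SE 0.27, adjusted p = 0.0001363 in edgeR), by Mki67 or Top2a -0.95 (SE 0.29, adjusted p = 0.03746 in edgeR) and between the ends of the split 2.07 (SE 0.38, adjusted p = 9.989e-06 in edgeR).

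Partner and related genes mostly did not pass. For the counts at an unadjusted p under 0.05 below, the share over all genes tested was 8.77%, 9.87% and 14.9% in the 3 comparisons. Of 12 listed NuRD partners, 9 were tested and 0 were called in any of the 3 comparisons by edgeR, DESeq2 or limma-voom, with 1, 1 and 1 at an unadjusted p under 0.05 in edgeR, near that share. Their median log2 differences were -0.12, 0.28 and -0.28, beside -0.02, -0.01 and -0.03 over all genes tested. The histone deacetylase Hdac2 and the histone-binding Rbbp4, the best counted of them, differed by -0.24 and -0.10 with Neurod1 (adjusted p = 0.896 and 0.97 in edgeR). The deacetylase and histone-binding genes of the complex thus had no call to set beside that of Chd3.

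Of 20 other Snf2-type ATPases, 15 were tested and 0, 0 and 1 were called by edgeR, with 0, 2 and 1 at an unadjusted p under 0.05 (0, 0 and 0 called by DESeq2, and 0, 0 and 1 by limma-voom). Medians were -0.10, 0.03 and -0.04. Rad54l, a motor of homologous recombination, was the one called, lower in Neurod1-only barcodes (adjusted p = 0.0006576 in edgeR, and 0.001321 without tumour 2). It had 0, 0 and 0 counts there, against 12, 2 and 9 counts in Mki67 or Top2a-only barcodes. With a floor of 3 counts over the 3 tumours in place of 0, the pooled level is 6.43-fold lower. That ratio has no interval and is not a lower bound. Smarca4, the BAF motor, and Atrx, which works at heterochromatin, differed by 0.23 and -0.10 with Neurod1 (adjusted p = 0.832 and 0.929 in edgeR).

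Of 19 BAF subunits, 15 were tested and 0 were called in any comparison by edgeR, DESeq2 or limma-voom, with 1, 3 and 3 at an unadjusted p under 0.05 in edgeR and medians of 0.06, 0.08 and -0.12. Bcl7a and Smarcc2, the best counted of them, differed by -0.07 and 0.45 with Neurod1 (adjusted p = 0.97 and 0.476 in edgeR). Of 10 reported CHD cofactors, 8 were tested, and 0, 1 and 1 were called by edgeR, with medians of -0.16, 0.47 and -0.71. At an unadjusted p under 0.05 there were 0, 6 and 5, while DESeq2 called 0, 0 and 0 and limma-voom 0, 0 and 1. Cbx3, a heterochromatin protein, had 449, 704 and 467 CPM in Mki67 or Top2a-detected barcodes, against 301, 297 and 286 CPM in barcodes free of both. Its log2 difference was 0.71 (SE 0.22, adjusted p = 0.04209 in edgeR), higher in 3 of 3 tumours, and 0.65 without tumour 2 (adjusted p = 0.04616 in edgeR). Supt16, a subunit of the histone chaperone FACT, had 487, 449 and 470 CPM in Neurod1-only barcodes, against 976, 567 and 740 CPM in Mki67 or Top2a-only barcodes, with a log2 difference of -0.83 (SE 0.26, adjusted p = 0.03575 in edgeR), lower in 3 of 3 tumours, and -0.85 without tumour 2 (adjusted p = 0.004535 in edgeR).

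The genes whose levels most resembled each CHD gene were ranked by Pearson's r of tumour-centred log2 CPM over 8 sums, the 4 sets of tumours 1 and 3, among 2319 genes. Sets of 1 tumour share a library, and with 8 points high values arise easily, so r is a description. Chd3 was nearest to Arpp21 (r = 0.991), Celf4 (r = 0.988) and Grin2b (r = 0.981). Grin2b, a glutamate receptor subunit, is also on the granule neuron marker list. Chd7 was nearest to Nnat (r = 0.992), Elavl3 (r = 0.961), an RNA-binding protein of neurons, and Slc17a6 (r = 0.958), a vesicular glutamate transporter. Chd4 was nearest to Psma6 (r = 0.958), 2810428I15Rik (r = 0.951) and Gps2 (r = 0.946).

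Levels also depended on the depth of the barcode. In bins of barcodes starting at 50, 100, 200 and 500 counts, Chd4 stood at 650, 1012, 1634 and 1758 CPM in tumour 1. It stood at 1119, 1222, 1452 and 1425 CPM in tumour 2 and at 784, 841, 1381 and 1422 CPM in tumour 3. The share of Chd4 thus climbed with depth in the deep tumours, and in tumour 2 its intervals overlapped. The bin from 200 up to 500 counts held 2.51, 1.30 and 1.76 times the Chd4 CPM of the bin from 50 up to 100 counts in tumours 1, 2 and 3, while the median ratio over all genes with at least 30 counts was 0.937, 0.956 and 0.987.

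Chd7 had ratios of 2.46, 0.735 and 1.84, and Chd3 of 2.66, 2.07 and 1.79. In tumours 1 and 3 all 8 CHD genes other than Chd5 were higher in the deeper bin, by 1.73 to 3.08 times in tumour 1 and by 1.29 to 1.84 times in tumour 3. Beside the median ratio given above, the share of all genes higher in that bin was not computed, so this is a description. In tumour 2, Chd2, Chd7 and Chd9 had ratios below 1. In the barcodes used for the comparisons Chd4 averaged 1513 ± 161 CPM (SD, n = 3), above its level over all barcodes in each tumour. Chd7 averaged 824 ± 235 CPM there (SD, n = 3), above its level over all barcodes in tumours 1 and 3 and below it in tumour 2. Mitochondrial counts moved along with depth in tumour 1, at 2.26% of counts in the shallowest bin and 5.12% in the bin from 200 up to 500 counts, and their part in the result was not tested.

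**Figure D5:**
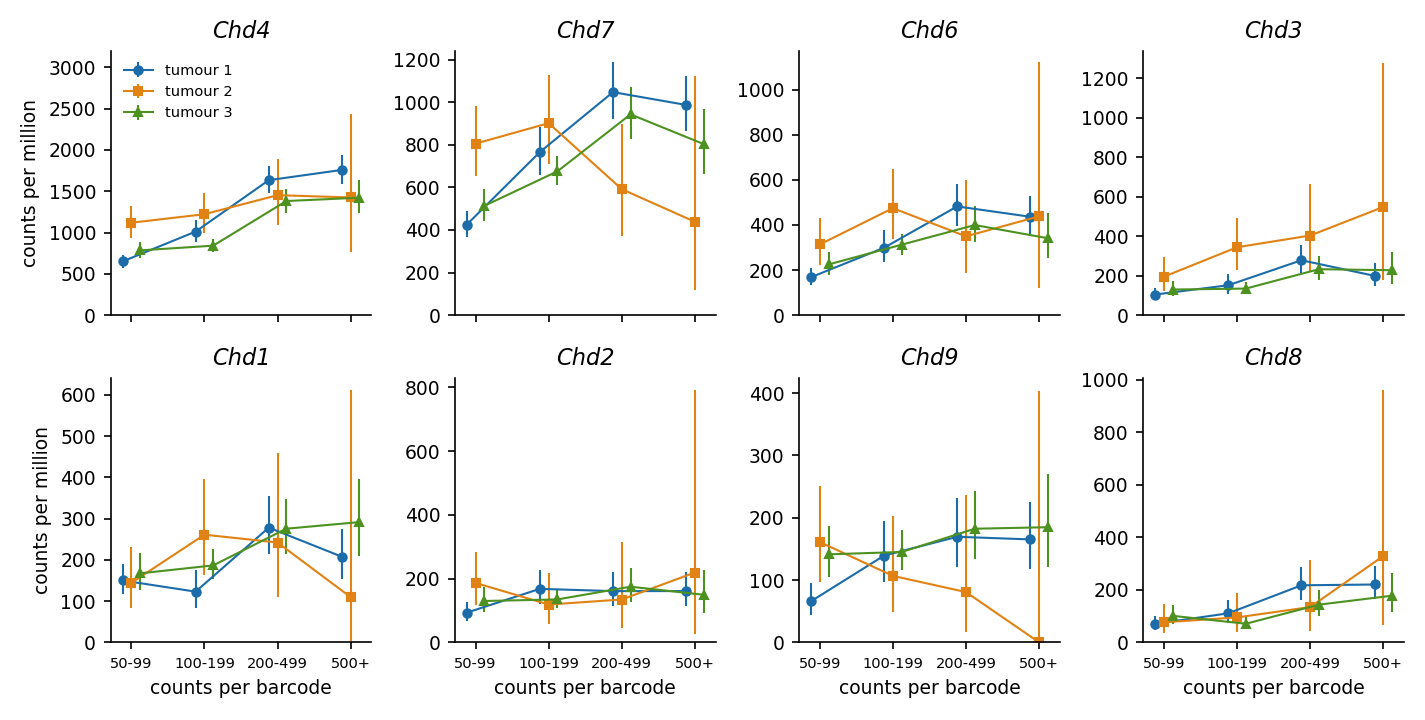
Level of each CHD gene but Chd5 in CPM (vertical axes, each panel its own scale) by the number of counts in the barcode (horizontal axis), with exact Poisson 95% intervals; lines join the bins of 1 tumour. In the bin from 200 counts Chd4 lies at 1634 and 1381 CPM in tumours 1 and 3, against 650 and 784 CPM in the bin from 50 counts.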

How the data were processed

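Drop-seq was run on cells dissociated with papain, per the labels' protocols. The authors deposited whole-number counts of transcripts per gene and barcode for each tumour, with no normalisation recorded. The tools listed in the submitters' processing notes are STAR and Cell Ranger, with roles and versions not given in the sources used here, and the build listed is GRCh38. As 18566 of 19744 symbols matched mouse names, no coordinates were used. Every barcode holds at least 50 genes. No library was a copy of another (chi-square per degree of freedom 4.81 to 6.84).

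Counts were summed per tumour and barcode set (barcodes of at least 200 counts) and tested with edgeR 4.0.16 (quasi-likelihood, TMM scaling, tumour as block since sets come from the same animal, genes of at least 30 counts, Benjamini-Hochberg, threshold 0.05). The script was tested on simulated data. The labels do not say whether tumours were processed separately beyond dissection. With tumour as a block, p-values rest on the spread of the difference between sets, not on the spread between tumours. In the 3 main fits that spread was taken mostly from all genes together. The intervals there are about as wide as if it were known. A small p-value thus says little about how well a gene's 3 tumours agree. Intervals and floors cover counting error only. Doublets were kept, and left out in an alternative (Scrublet called 1.56% to 2.15%). All 9 CHD genes are named; from the lists of related genes, those past the threshold and the 2 best counted of the others. The members and lists were chosen with earlier results of these data known. Alternatives were run with DESeq2 1.42.0, limma 3.58.1, other scalings, filters, depths and left-out tumours.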

Additional observations from a re-analysis of the deposited data

How the results depend on the processing

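Chd3 kept its direction in all 18, 18 and 17 alternatives run for the Neurod1, the Mki67 or Top2a and the Neurod1-only against Mki67 or Top2a-only comparisons, and stayed called in 11, 6 and 13 of them. Over the 8 genes and 3 comparisons, 374 of the alternative values kept direction and call, 23 lost the call (all Chd3), 1 gained it (Chd7 in the last comparison without tumour 2) and 26 changed sign without being called in either.

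In the order Neurod1, Mki67 or Top2a, and Neurod1-only against Mki67 or Top2a-only, 67, 173 and 290 genes were called, and 1 CHD gene each time. Without the replicate block, that is without pairing the sets of a tumour, these became 1, 64 and 104 genes, with 0 CHD genes (1, 0 and 1 at an unadjusted p under 0.05 in edgeR). DESeq2 called 1, 35 and 126 genes, with 0, 0 and 1 CHD genes (1, 0 and 1 unadjusted). With limma-voom 1 and 11 genes were called in the first 2 comparisons, with 0 CHD genes (1 and 1 unadjusted). With no filter on low counts there were 40 genes by Neurod1, and with a minimum of 100 counts over all sums 109 by Mki67 or Top2a; in both, 0 CHD genes were called by Mki67 or Top2a (1 and 2 unadjusted). Thinning barcodes to 200 counts, with the sets formed again from the thinned counts, left 14, 41 and 56 genes and 0 CHD genes (1, 1 and 2 unadjusted). Barcodes of at least 100 counts gave 40 genes by Neurod1 and 184 in the last comparison, with 0 CHD genes by Mki67 or Top2a (1 unadjusted). Barcodes of at least 500 counts gave 14, 36 and 90 genes, with 0 CHD genes in the first 2 comparisons (1 and 1 unadjusted). The cell filter with doublets left out gave 0 CHD genes by Mki67 or Top2a (1 unadjusted). Leaving out 1 tumour gave 1 to 114 genes by Neurod1, 2 to 206 by Mki67 or Top2a and 5 to 376 in the last comparison, with 0 to 1, 0 to 1 and 0 to 2 CHD genes, the highest each time without tumour 2. With tumour 2 left out and barcodes thinned, an alternative chosen after the data were seen, 55 genes were called by Mki67 or Top2a, with 0 CHD genes (2 unadjusted), and 75 in the last comparison. The cause of these shifts was not tested.

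The Chd3 share differed by Neurod1 by 8.68, 8.09 and 25.8 points with thinned barcodes and with minimums of 100 and 500 counts, and between Neurod1-only and Mki67 or Top2a-only barcodes by 10.5, 10.1 and 20.8 points (the last from 2 tumours) and by 13.4 points with the cell filter. Without 1 tumour these were 10.9 to 15.5 and 15.5 to 18.3 points.

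The values that changed sign, as log2 differences, were called under no setting concerned. By Neurod1, Chd2 had -0.26 thinned, -0.021 from 100 counts, -0.24 thinned without tumour 2 and -0.15 to 0.28 without 1 tumour. Chd4 had 0.025, 0.0012 and 0.18 when thinned, from 100 counts and thinned without tumour 2, and Chd8 had -0.025 to 0.33 without 1 tumour. By Mki67 or Top2a, Chd8 had 0.057 without the replicate block, 5.5e-05 with DESeq2 size factors, 0.18 with DESeq2, 0.035 with limma-voom, 0.20 and 0.14 from 100 and 500 counts, and -0.12 to 0.46 without 1 tumour. Chd4 had 0.093 from 100 counts and 0.032 with the cell filter, and Chd1 had -0.38 from 500 counts and -0.068 to 0.31 without 1 tumour. In the last comparison, Chd2 had -0.046 thinned and -0.099 to 0.93 without 1 tumour, Chd4 had 0.061 thinned and 0.18 thinned without tumour 2, Chd1 had 0.36 from 500 counts and Chd8 had -0.46 to 0.39 without 1 tumour. The adjustment for the other split has no counterpart in the last comparison and was not run there.

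Depth limits what can be said: tumour 2 holds 46315 counts in its 148 barcodes of at least 200 counts, so its Chd3 values rest on 4 to 11 counts a set, and Chd5, with 10 counts in all, cannot be compared. A set is defined by counts of Neurod1, Mki67 or Top2a, so barcodes in which these were missed stand among those free of them.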
